A study of Mus musculus with 4 samples.

Results

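The Hox genes encode homeodomain transcription factors that lie side by side in HoxA, HoxB, HoxC and HoxD clusters on 4 chromosomes. They were taken here as every gene whose annotated symbol is Hox, a cluster letter and a paralogue number, measured by an array probe set (a transcript cluster) assigned to that gene alone. This gave 32 members, of the 14860 genes measured and of the 39 Hox genes that RefSeq lists for the mouse. HoxA on chromosome 6 and HoxC on chromosome 15 each had 8 members, HoxB on chromosome 11 had 10 and HoxD on chromosome 2 had 6. The other Hox genes were not analysed here as single genes.

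The study addressed how loss of MUNC, a long noncoding RNA transcribed upstream of the myogenic regulator Myod1, acts on muscle differentiation of C2C12 cells. C2C12 is an established mouse myoblast line that divides in rich serum and forms myotubes when serum is lowered. Total RNA came from 4 cultures, each hybridised to 1 array: control siRNA and siMUNC (siRNA against MUNC) cells proliferating in 10% FBS, and control siRNA and siMUNC cells collected 3 days after a change, at 80% confluence, to 2% horse serum. All 4 groups are thus siRNA-treated cells of 1 line, and MUNC itself was not analysed here, so the depth of the knockdown is not known from these values. Values below are levels on a log2 scale as the authors deposited them, and when 4 levels are listed they stand in the order proliferating control, proliferating siMUNC, differentiating control and differentiating siMUNC. No group was repeated, so differences cannot be set against a spread between replicates and carry no p-value, and precision is limited by the number of arrays. A 1-unit difference is 2-fold, a gene is called expressed in a comparison when its higher level there is at least 8.50 (the median of all gene means), and "past 2-fold" means an expressed gene with a difference of at least 1 in size.

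In the embryo, Hox genes are switched on along the body axis in the order in which they lie on the chromosome: low paralogue numbers act in the hindbrain and neck, middle numbers in the trunk, and high numbers in the lumbar and tail regions and the limbs. Polycomb complexes keep clusters silent where they are not used and Trithorax proteins keep them active, so that mesenchymal cells, fibroblasts and myoblasts among them, keep a Hox pattern of their site of origin in culture. Hox proteins bind DNA with PBX, MEIS and PKNOX partners, and in mouse muscle Hoxa9 and Hoxa10 are known for roles in satellite cells, the stem cells of the tissue.

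The myoblast identity of the cells was seen in the 7 measured myoblast markers, all at or above 8.50 on all 4 arrays, with Myod1 at 11.46, 10.96, 11.75 and 10.70. None of the measured endothelial, neural or osteoblast markers reached 8.50 on any array, and Cd68 of the macrophage list, Sox9 of the chondrocyte list and 3 adipocyte genes did. Of 9 measured fibroblast markers 7 reached it on some array and 4 on all 4, and 3 were past 2-fold higher in control differentiation: Lum (4.87), Dpt (3.72) and Dcn (2.21). Lum was also the list's lowest for the knockdown in differentiating cells, at -3.55. All 10 myotube markers were past 2-fold higher in differentiating than in proliferating control cells, and 6 of the 10 were past 2-fold lower in siMUNC than in control differentiating cells. All 9 measured proliferation markers were higher with siMUNC in that comparison, 6 of them past 2-fold, with a median difference of 1.11. The part of these marker differences in the Hox values was not tested. In a culture, fewer differentiated cells and less RNA per cell cannot be told apart. Correlations between arrays over all clusters ran from 0.964 for the control pair of states to 0.988 for the proliferating pair.

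The Hox levels divided by cluster. Of the 32 members 9 were at or above 8.50 on all 4 arrays, a share of 28.1% where 45.3% of all genes were, and all of these lay in HoxA or HoxC. They were Hoxa7, Hoxa9, Hoxa10 and Hoxa11, and Hoxc5, Hoxc6, Hoxc8, Hoxc9 and Hoxc10. In HoxB 0 of 10 members reached 8.50 on any array, in HoxD 0 of 6, in HoxA 6 of 8 and in HoxC 7 of 8. Over all clusters 13 of 32 members reached 8.50 on some array, where 7968 of 14860 genes did. By position, 0 of 6 members of paralogue groups 1 to 3 reached 8.50 on any array, against 6 of 13 of groups 4 to 8 and 7 of 13 of groups 9 to 13. All members of groups 1 to 3 but Hoxa2 lie in HoxB or HoxD, so position cannot be told apart from cluster here. A probe set's level depends on its probes as well as on its RNA, so each gene is set here only against 8.50 and genes are not ranked against each other.

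**Figure D1:**
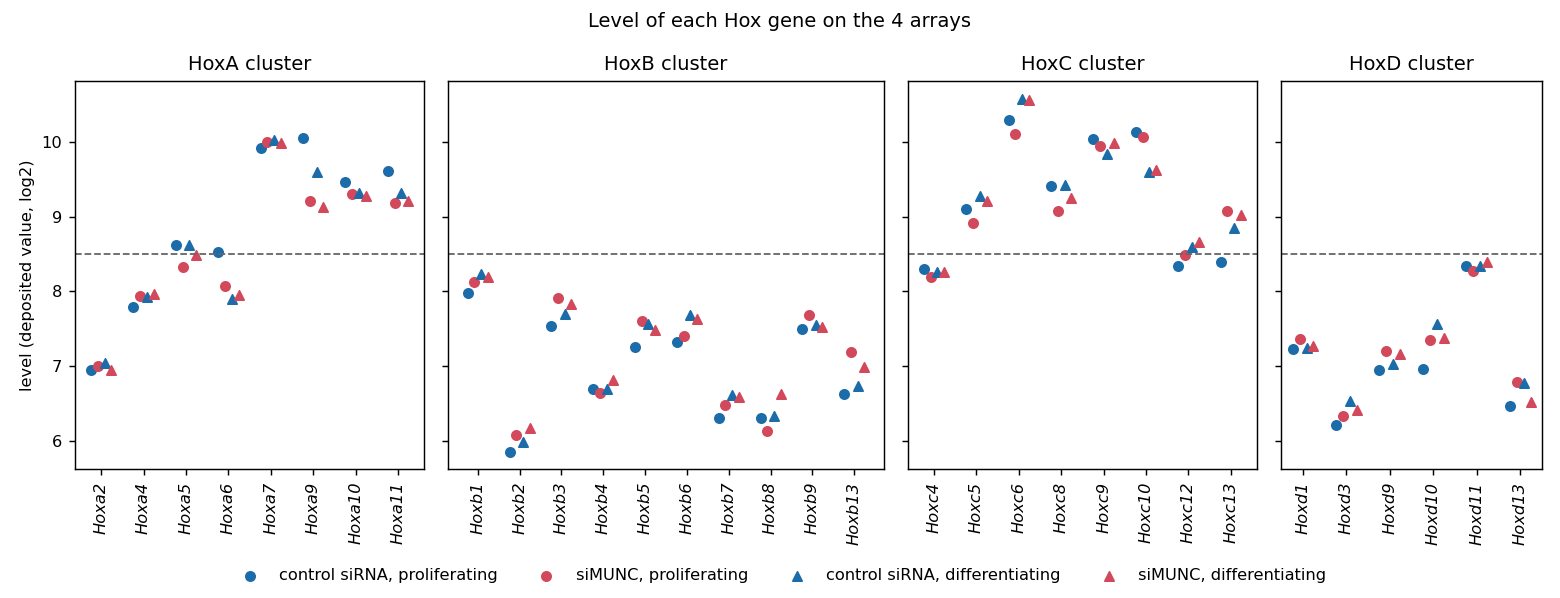
Levels of the 32 Hox genes on the log2 scale, by cluster and paralogue number, 1 point for each of the 4 arrays, with the 8.50 level drawn as a dashed line. Every HoxB and HoxD point lies below the line, and 9 HoxA and HoxC genes lie above it on all 4 arrays.

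Among the HoxA genes, Hoxa7, which patterns thoracic vertebrae, had levels of 9.92, 10.00, 10.02 and 9.98, a range over the 4 arrays of 0.0989. Hoxa10, which specifies rib-free lumbar vertebrae, had levels of 9.46, 9.30, 9.32 and 9.28. Both were above 8.50 in each culture and moved little between siRNAs or states. Hoxa9, a trunk and limb patterning gene that is also active in blood progenitors, had levels of 10.05, 9.21, 9.60 and 9.13, and its highest array was that of proliferating control cells. Hoxa11, which patterns the forearm and has been found in limb muscle precursors of the chick, had levels of 9.61, 9.19, 9.31 and 9.21 and was likewise highest in the proliferating control. Hoxa5, which acts in the lung and at the neck to trunk border, had levels of 8.62, 8.32, 8.62 and 8.49, so that only the control arrays were above 8.50. Hoxa6, a trunk gene, had levels of 8.52, 8.07, 7.90 and 7.95, with only the proliferating control above it. Hoxa2, which sets the identity of the second branchial arch, had levels of 6.94 to 7.04 over the 4 arrays, and Hoxa4, a neck and upper trunk gene, of 7.79 to 7.96. Both stayed below 8.50 on all 4 arrays. In the RefSeq annotation Hoxa4, Hoxa5 and Hoxa6 overlap a Hoxa3 transcript, and Hoxa5 and Hoxa6 also overlap Hoxaas3. Hoxa10 overlaps Gm52902 and Hoxa11 overlaps an antisense gene. Part of the signal of these Hox genes could come from the overlapping genes.

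HoxC held 5 genes at or above 8.50 on all 4 arrays. Hoxc6, which specifies forelimb-level motor neurons, had levels of 10.29, 10.11, 10.58 and 10.57 and was higher in both differentiating cultures than in both proliferating ones. Hoxc9, which represses forelimb-level Hox genes in thoracic motor neurons, had levels of 10.03, 9.95, 9.84 and 9.99, a range of 0.19. Hoxc10, a lumbar and hindlimb-level gene, had levels of 10.13, 10.07, 9.59 and 9.62, higher in both proliferating cultures. These 3 genes thus showed 3 different orders of the arrays. Hoxc5, a neck-level gene, had levels of 9.10, 8.92, 9.27 and 9.21, and Hoxc8, which patterns the brachial spinal cord, of 9.42, 9.07, 9.43 and 9.25. Each was lowest in siMUNC proliferating cells. Hoxc13, which is required for hair shaft formation, had levels of 8.40, 9.07, 8.85 and 9.03, with the proliferating control alone below 8.50. Hoxc12 crossed that line with state, at 8.34, 8.48, 8.59 and 8.66. Hoxc4, a neck-level gene, was just below 8.50 throughout, at 8.30, 8.19, 8.26 and 8.26. In the RefSeq annotation Hoxc4 overlaps Gm30528, Hoxc5 overlaps Mir615 and Hoxc9 overlaps Gm36878. Part of the signal of these Hox genes could come from the overlapping genes.

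The HoxB and HoxD genes gave low values. Among HoxB, the hindbrain genes Hoxb1, Hoxb2 and Hoxb3 had levels of 7.98 to 8.24, 5.85 to 6.17 and 7.54 to 7.91 over the 4 arrays, and Hoxb4, known for expanding blood stem cells, 6.64 to 6.81. The trunk genes ran over 7.26 to 7.60 for Hoxb5, 7.33 to 7.68 for Hoxb6, 6.31 to 6.62 for Hoxb7 and 7.49 to 7.68 for Hoxb9. None of these 8 had a range over the arrays above 0.374, the value of Hoxb3. Hoxb8, which can immortalise myeloid progenitors, had levels of 6.30, 6.12, 6.33 and 6.63, and Hoxb13, a tail and prostate gene, of 6.63, 7.18, 6.74 and 6.99. In HoxD, Hoxd1 ran over 7.23 to 7.36, Hoxd3, which shapes the first neck vertebrae, 6.20 to 6.53, and Hoxd9 6.94 to 7.20. Hoxd10, a lumbar and hindlimb gene, had levels of 6.95, 7.35, 7.56 and 7.37, Hoxd11, the forearm partner of Hoxa11, of 8.34, 8.27, 8.34 and 8.39, and the digit gene Hoxd13 of 6.47, 6.78, 6.78 and 6.52. All 3 were below 8.50 on every array, as were the other HoxD members. RefSeq transcripts of Hoxb3 with Hoxb4, Hoxd3 with Hoxd4 and Hoxd10 with Hoxd11 overlap, and Hoxb2, Hoxb3, Hoxb5 and Hoxb6 overlap antisense genes, which the probe assignment may not separate.

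Each Hox level varied by less than 2-fold over the 4 cultures. The range of a member over the arrays had a median of 0.322, from 0.0989 for Hoxa7 to 0.919 for Hoxa9, where the median of all genes was 0.383. It was under 0.5 for 25 of the 32 members, a share of 78.1%, and for 64.8% of all genes. Of the 20 members with a mean below 8.50, 16 (80%) were under 0.5 with a median range of 0.313. All genes of such means had 71.0% and 0.349. Of the 12 members with a mean at or above 8.50, 9 (75%) were under 0.5 with a median range of 0.353. All genes of such means had 58.5% and 0.427. The members with a range above 0.5 were Hoxa9, Hoxc13, Hoxa6, Hoxd10, Hoxb13, Hoxc10 and Hoxb8. The count of members at or above 8.50 was 11 and 10 in proliferating control and siMUNC cells and 12 and 11 in differentiating ones.

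Differentiation of control cells was compared first. No expressed Hox member was past 2-fold, 0 of 13, where 11.8% of all expressed genes were. Past 1.5-fold there was 1 of 13, Hoxa6, lower by 1.54-fold (a difference of -0.62), where 25.7% of all expressed genes were past 1.5-fold. Hoxa6 counted as expressed here only through the proliferating control, at 8.52 beside 7.90, so the filter allowed it a lower call only. Hoxc10 was lower by 1.45-fold, with a difference of -0.54, and Hoxa9 by 1.37-fold, with one of -0.45. In the other direction Hoxc13 was 1.36-fold higher, with a difference of 0.45, and Hoxc6 had a difference of 0.29. Hoxd10, below 8.50 on every array, showed the widest positive difference of the 32, 0.61 or 1.52-fold. Over all 32 members 24 differences were above 0 with a median of 0.10, beside 55.9% of all genes and a median of 0.05. This order of the medians depended on the scaling: after cyclic loess 21 members were above 0 with a median of 0.03, beside 0.05 for all genes, and after quantile normalization both medians were 0.08. All 10 HoxB and all 6 HoxD differences were above 0, with medians of 0.14 and 0.19, beside 71.7% of all dim genes. Those of Hoxb4, Hoxb8, Hoxd1 and Hoxd9, all under 0.1, turned below 0 under at least 1 other scaling. HoxA had 3 of 8 above 0 and a median of -0.07, and HoxC 5 of 8 and a median of 0.09.

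Low-valued genes of the whole array were lowest on the same array as most HoxB and HoxD genes, the proliferating control. Over the 7430 genes with a mean below 8.50 the median level was 6.44 in the proliferating control and 6.61, 6.64 and 6.62 on the other arrays. The median difference of these dim genes was 0.16 for differentiation in control cells, beside 0.12 for the 20 dim Hox members. The proliferating control was the lowest of the 4 arrays for 15 of the 20 dim members, or 75%, and for 54.6% of all dim genes. Of the 12 members with a mean at or above 8.50 it was the highest array for 6, or 50%, where it was highest for 32.9% of such genes. The part of this array-wide shift in the Hox differences was not tested.

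In the differentiation of siMUNC cells the Hox differences ran from -0.45 to 0.50, beside -0.62 to 0.61 in control cells. Again 0 of 11 expressed members were past 2-fold, where 4.26% of expressed genes were, and 0 of 11 past 1.5-fold, where 12.3% were. Hoxc10 had a difference of -0.45, close to its -0.54 in control cells, and Hoxc6 one of 0.46 beside 0.29. Hoxa9 and Hoxa6, lower on differentiation in control cells, had differences of -0.08 and -0.12 here, and Hoxd10 one of 0.03. The widest difference was that of dim Hoxb8, 0.50 or 1.42-fold, outside the 5th to 95th percentile of genes of similar level, -0.32 to 0.37. The other 31 members lay inside the range for their level, and all 32 did so in control cells; 10% of all genes lie outside by construction. Over the members 18 differences (56.25%) were above 0 with a median of 0.03, beside 46.2% and a median of -0.02 for all genes. The control and siMUNC differentiation differences share no array. Over the 32 members they correlated at r = 0.313 (rho = 0.183), and over all other genes at r = 0.757 (rho = 0.597). Of the members 20 are dim, and over all dim genes r was 0.603 (rho = 0.329). Over all genes with a mean at or above 8.50 r was 0.855 (rho = 0.791). The genes are measured on the same 4 arrays and are not independent replicates.

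**Figure D2:**
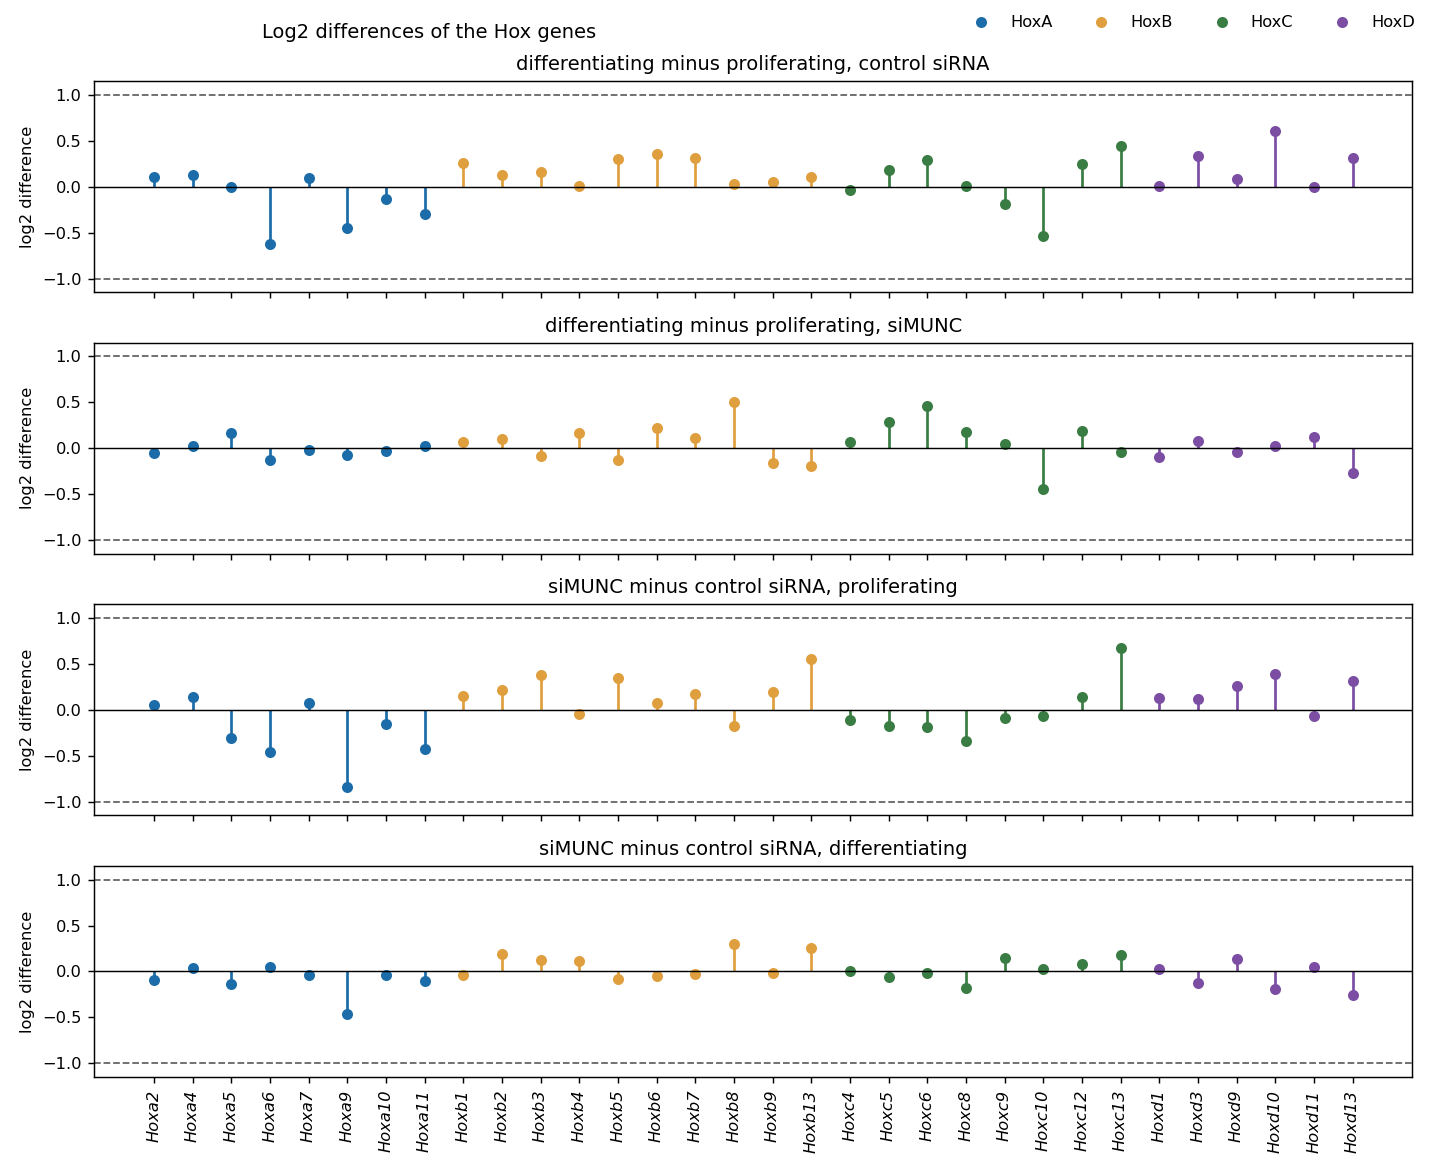
Log2 differences of the 32 Hox genes in 4 comparisons, with genes in the order of cluster and paralogue number and dashed lines at a 2-fold difference. No gene reaches a dashed line; the widest are Hoxa9 at -0.84 and Hoxc13 at 0.67 for siMUNC in proliferating cells.

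The knockdown in proliferating cells gave the widest Hox differences. It shares the proliferating control array with the differentiation of control cells, so the differences of both move together with that array's error. No expressed member of 12 was past 2-fold, where 0.397% of expressed genes were. Past 1.5-fold were 2 of 12, Hoxa9 and Hoxc13, where 3.42% of expressed genes were, 2.50% lower and 0.925% higher. Hoxa9 was 1.79-fold lower in siMUNC cells, a difference of -0.84, and Hoxc13 was 1.59-fold higher, a difference of 0.67. Both lay outside the 5th to 95th percentile of genes of similar level, -0.51 to 0.32 for genes with means of 9 to 10 and -0.53 to 0.39 for means of 8 to 9. Hoxc13 counted as expressed in this comparison only through the siMUNC array, at 9.07 beside 8.40 in the control, so the filter allowed it a higher call only. Dim Hoxb13, at 0.56, was just outside its range of -0.29 to 0.55, and the other 29 members lay inside theirs. The members outside were thus 3 of 32, where 10% of all genes lie outside by construction.

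Several neighbours of Hoxa9 were also lower in siMUNC proliferating cells. Hoxa6 had a difference of -0.45, Hoxa11 of -0.43, Hoxa5 of -0.30 and Hoxa10 of -0.15. Hoxa7, which lies between Hoxa6 and Hoxa9, had one of 0.07, Hoxa2 one of 0.06 and Hoxa4 one of 0.14, so that 5 of 8 HoxA members were below 0. In HoxC, Hoxc8 had a difference of -0.34 and 6 of 8 members were below 0, with Hoxc12 and Hoxc13 above it. Of the 12 members with a mean at or above 8.50, 3 (25%) were above 0 with a median of -0.17, beside 44.3% and a median of -0.03 for all genes of such means. Of the 20 dim members 15 (75%) were above 0 with a median of 0.14, beside 69.3% and a median of 0.12 for all dim genes. Over the 32 members 18 (56.25%) were above 0 and 14 below, with a median of 0.08. Of all genes 56.8% were above 0, with a median of 0.04.

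**Figure D3:**
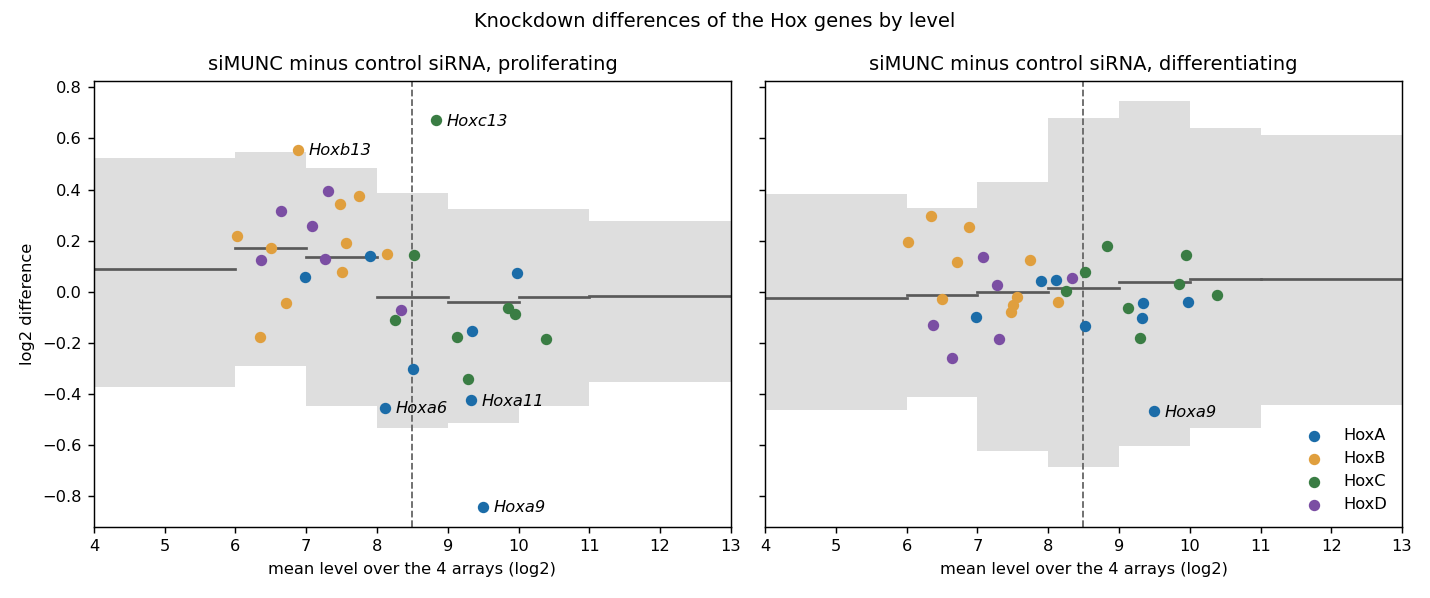
Knockdown differences of the 32 Hox genes (points) against their mean level, in proliferating and differentiating cells, with the median (line) and the 5th to 95th percentile (grey) of all genes of similar mean level and a dashed line at 8.50. Hoxa9, Hoxc13 and Hoxb13 lie outside the grey band in proliferating cells and no member does in differentiating cells. By construction 10% of all genes lie outside the band.

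Promoter sequences are shown for the 3 HoxA genes with the widest lower values in siMUNC proliferating cells and for Hoxd10, whose difference of 0.39 ran the other way. Hoxd10 was below 8.50 on every array. Hoxc13 and Hoxb13, at 0.67 and 0.56, were further in that direction but had no window. The sequences are RefSeq windows of assembly GRCm38.p6, 250 bases before to 50 bases after the gene start, read 5′ to 3′ on the gene's strand. Capitals mark E-boxes, the CANNTG motif that MyoD and related factors bind. The windows are chr6:52208623-52208922 (minus strand) for Hoxa6, chr6:52227321-52227620 (minus strand) for Hoxa9, chr6:52245761-52246060 (minus strand) for Hoxa11 and chr2:74691641-74691940 (plus strand) for Hoxd10.
Hoxa6: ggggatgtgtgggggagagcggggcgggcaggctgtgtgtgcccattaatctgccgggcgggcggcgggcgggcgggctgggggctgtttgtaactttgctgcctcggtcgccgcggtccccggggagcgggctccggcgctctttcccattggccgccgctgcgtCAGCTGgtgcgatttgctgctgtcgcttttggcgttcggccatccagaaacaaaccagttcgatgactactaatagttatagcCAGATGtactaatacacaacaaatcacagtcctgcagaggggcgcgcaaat
Hoxa9: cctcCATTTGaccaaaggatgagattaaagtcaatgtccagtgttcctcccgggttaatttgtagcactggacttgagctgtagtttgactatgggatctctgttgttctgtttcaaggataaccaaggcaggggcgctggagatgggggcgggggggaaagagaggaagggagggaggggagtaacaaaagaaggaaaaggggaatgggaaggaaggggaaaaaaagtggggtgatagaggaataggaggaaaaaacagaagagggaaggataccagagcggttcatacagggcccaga
Hoxa11: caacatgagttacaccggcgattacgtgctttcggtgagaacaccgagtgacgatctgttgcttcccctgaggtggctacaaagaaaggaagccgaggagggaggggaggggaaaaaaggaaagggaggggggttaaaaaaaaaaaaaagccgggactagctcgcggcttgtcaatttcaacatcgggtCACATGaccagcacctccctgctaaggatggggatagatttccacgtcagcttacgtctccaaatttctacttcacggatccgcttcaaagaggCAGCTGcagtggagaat
Hoxd10: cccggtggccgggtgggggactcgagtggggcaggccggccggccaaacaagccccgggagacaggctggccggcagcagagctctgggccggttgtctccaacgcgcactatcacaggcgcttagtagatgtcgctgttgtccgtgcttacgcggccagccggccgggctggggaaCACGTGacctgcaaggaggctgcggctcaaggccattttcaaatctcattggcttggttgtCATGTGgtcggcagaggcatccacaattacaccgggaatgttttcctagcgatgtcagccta

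Hoxa9 held 1 E-box and 4 CpG dinucleotides in its window, and Hoxa6, Hoxa11 and Hoxd10 held 2 E-boxes each with 26, 15 and 22 CpG. Windows were given for 17 of the 32 members, 19 windows in all. An E-box stood in 13 of these 19 (68.4%) and in 72.3% of all 32851 windows, counted on both strands, which read alike for this motif. Its form CAGCTG, counted in those figures too, stood in 3 (15.8%) of the Hox windows and in 16.3% of all. The homeodomain core TAATTA stood in 2 (10.5%), both of them windows of 1 gene, Hoxd11, and in 5.29% of all, and TGATNNAT, a site for Hox proteins with PBX, in 4 (21.1%) and in 8.85%, each on either strand. The Hox windows had a median of 15 CpG and 58% GC, where all windows had 7 CpG and 52.7% GC. These matches describe the letters in the windows and are not binding sites.

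The knockdown in differentiating cells left 0 of 12 expressed members past 2-fold, where 4.28% of expressed genes were, and 0 of 12 past 1.5-fold, where 12.5% were. Hoxa9 again had the widest difference, -0.47 or 1.38-fold lower in siMUNC cells, so that it was lower with siMUNC in both states. Hoxc13 and Hoxb13 were higher with siMUNC in both states, by 0.18 and 0.25 here, and Hoxc8 and Hoxa11 were lower in both, at -0.18 and -0.10 here. Hoxa6, lower with siMUNC in proliferating cells, had a difference of 0.04. The highest value was that of dim Hoxb8, 0.29. All 32 members lay inside the 5th to 95th percentile of genes of similar level, where 10% of all genes lie outside by construction. Over the members 15 (46.9%) were above 0 and 17 below, with a median of -0.02. Of all genes 52.0% were above 0, with a median of 0.01. The knockdown differences in the 2 states share no array. Over the 32 members they correlated at r = 0.440 (rho = 0.264), and over all other genes at r = 0.150 (rho = 0.144). Over all genes with a mean at or above 8.50 r was 0.307 (rho = 0.327), and over all dim genes 0.0677 (rho = 0.0491). The same sign in both states was seen for 15 of 32 members, or 46.9%, and for 55.8% of all other genes, so that the sign and the correlation order the Hox and other genes oppositely.

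The difference of differentiation effects, siMUNC minus control, uses all 4 arrays. It left 0 of 13 expressed members past 2-fold, where 4.74% of expressed genes were, and 0 of 13 past 1.5-fold, where 12.6% were. Hoxa6 had the highest value, 0.50, since its level differed between states by -0.62 in control and -0.12 in siMUNC cells. Hoxa9 had 0.37 and Hoxa11 0.32, while Hoxc13 had -0.49. For dim members the values were -0.58 for Hoxd10, -0.57 for Hoxd13 and 0.47 for Hoxb8, the last outside the range of genes of its level, -0.72 to 0.40. HoxB had 8 of 10 members below 0 and HoxD 5 of 6, each with a median of -0.19, whereas the HoxA median was 0.14 and the HoxC median 0.11. Of all dim genes 5065 of 7430 were below 0 with a median of -0.14, beside 15 of the 20 dim Hox members, also with -0.14. Genes with a mean at or above 8.50 had a median of 0.06, beside 0.14 for the 12 Hox members of such means.

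Paralogues, the members of different clusters that share a number and act in overlapping body regions, did not share one pattern. In group 10 the differentiation difference in control cells was -0.14 for Hoxa10, -0.54 for Hoxc10 and 0.61 for Hoxd10. In group 9 the knockdown difference in proliferating cells ran from -0.84 for Hoxa9 through -0.09 for Hoxc9 and 0.19 for Hoxb9 to 0.26 for Hoxd9. In group 6 Hoxa6 and Hoxc6 differed in the sign of their differentiation difference in control cells, -0.62 and 0.29, with dim Hoxb6 at 0.35. In group 13 the 3 measured members were all higher with siMUNC in proliferating cells, Hoxc13 by 0.67, Hoxb13 by 0.56 and Hoxd13 by 0.31, with Hoxb13 and Hoxd13 dim. The 2 measured members of each of groups 1, 2, 3 and 7 were also higher with siMUNC there, by 0.06 for Hoxa2 to 0.37 for Hoxb3. All of these but Hoxa7 were dim, and 69.3% of all dim genes were above 0 in that comparison, with a median of 0.12. Those of groups 8 and 11 were lower, from -0.43 for Hoxa11 to -0.07 for dim Hoxd11. The sign turned under 1 altered processing setting for each of dim Hoxa2 (to -0.02), dim Hoxb8 (to 0.05) and dim Hoxd11 (to 0.01).

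The genes around the Hox network were counted by lists. Of the TALE cofactors, which bind DNA with Hox proteins, 7 of 9 were measured. In control differentiation 1 of the 7 expressed was past 2-fold, Pknox2, with levels of 7.78, 7.64, 9.16 and 9.12. Pknox2 was higher in both differentiating cultures, by 1.38 in control and 1.47 in siMUNC cells. Meis2 had levels of 11.93, 11.70, 11.05 and 11.47, a difference of -0.88 in control differentiation and of -0.22 in siMUNC differentiation. Meis1 had levels of 9.73, 9.55, 9.54 and 9.50, Pknox1 of 9.26, 8.85, 8.65 and 8.59 and Pbx3 of 10.93, 10.89, 10.29 and 10.72. No cofactor was past 2-fold for either knockdown, the widest being 0.43 for Pbx3 in differentiating and -0.41 for Pknox1 in proliferating cells.

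Of the Polycomb genes 20 of 22 were measured. In control differentiation 2 of the 19 expressed were past 2-fold lower, where 517 of 7856 expressed genes were. Phf19, an accessory factor of Polycomb complex 2, had levels of 9.61, 9.35, 7.94 and 8.63, and Ezh2, its methyltransferase in dividing cells, of 11.62, 11.46, 10.56 and 10.97. Ezh1, the form of resting cells, had levels of 9.83, 9.67, 10.55 and 10.37, higher in both differentiating cultures. The siMUNC differentiation differences were -0.72 for Phf19 and -0.49 for Ezh2, beside -1.66 and -1.06 in control cells. Rnf2, the ubiquitin ligase of Polycomb complex 1, was the highest of the list for the knockdown in proliferating cells, at 0.64, and Cbx8 the lowest at -0.47. Of the Trithorax list 7 of 13 were measured, Kmt2a not among them. In control differentiation 1 of the 7 expressed was past 2-fold lower, Dpy30, with levels of 11.44, 11.12, 10.31 and 10.25. All 9 measured proliferation markers were past 2-fold lower in the same comparison; the part of fewer dividing cells in the Ezh2, Phf19 and Dpy30 values was not tested.

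**Figure D4:**
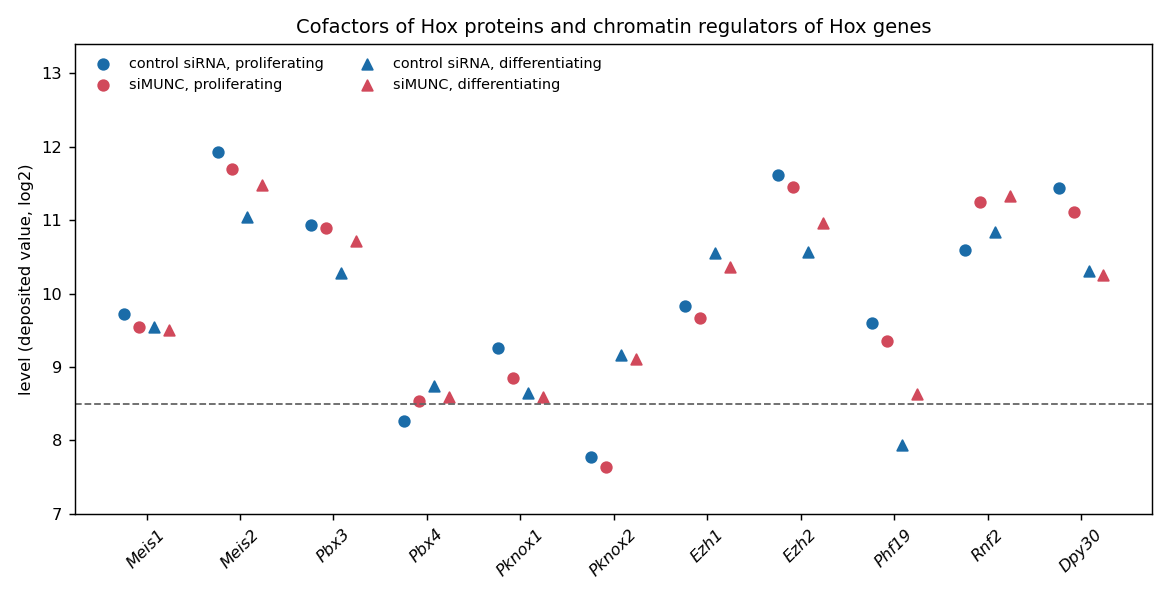
Levels of Hox cofactors and of Polycomb and Trithorax genes on the log2 scale, 1 point for each of the 4 arrays. Pknox2 and Ezh1 are higher, and Ezh2, Phf19 and Dpy30 lower, in both differentiating cultures than in both proliferating ones.

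Of the Cdx and retinoic acid genes, which act upstream of Hox genes in the embryo, 18 of 22 were measured, 6 of them expressed in control differentiation. Crabp1, a retinoic acid binding protein, had levels of 7.59, 7.97, 8.90 and 8.14, past 2-fold higher in control differentiation at 1.31 and at 0.16 in siMUNC cells, the 1 gene of the list past 2-fold in the difference of effects. The list's widest proliferating knockdown differences were 0.57 for dim Cyp26b1 and -0.33 for Rxra. Of 28 genes that flank the clusters 20 were measured, 15 of them expressed in each differentiation comparison. Calcoco1, beside HoxC, was past 2-fold higher in both, with levels of 10.83, 11.11, 12.68 and 12.13. The homeobox genes Evx1 and Evx2, at the ends of HoxA and HoxD, had levels of 8.38, 8.71, 8.69 and 8.70 and 8.36, 8.68, 8.73 and 8.60, each lowest in the proliferating control. Of 17 noncoding RNAs of the clusters 0 had a probe set of their own, and they were not analysed here.

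Of 30 limb factors 28 were measured, 12 of them expressed in control differentiation. The hindlimb genes Pitx1 and Tbx4 had levels of 7.24, 7.59, 7.64 and 7.67 and 6.83, 6.81, 7.25 and 7.12, and the forelimb gene Tbx5 of 5.34, 5.43, 5.51 and 5.71, all below 8.50. Tbx15, which acts in limb skeleton and muscle fibre type, was the 1 limb factor past 2-fold in control differentiation, with levels of 10.41, 10.20, 11.61 and 10.72. Of 21 measured homeobox genes of other regions 4 were expressed in control differentiation and 1, Dlx3, was past 2-fold lower, at -1.37. For the knockdown in proliferating cells 17 of these 21 were above 0 with a median of 0.28, beside 15 of 20 and 0.14 for the dim Hox members. The osteoblast and adipocyte marker lists had medians of 0.37 each there, and the neural list 0.26. Lower medians were those of the chondrocyte (0.19), endothelial (0.18), macrophage (0.08) and fibroblast (-0.35) lists. Of all dim genes 69.3% were above 0, with a median of 0.12.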

How the data were processed

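The deposited values, 1 for each transcript cluster on each of 4 Affymetrix arrays, came from Affymetrix Expression Console, as the submitters' processing notes state without a version. How background and differences between arrays were handled, and on which genome build, is not given in the sources used here. A log2 scale was inferred for the deposited values: the highest, 14.3, exceeds the natural log limit of 11.1 for a 16-bit scanner and stays under the log2 limit of 16, and the lowest is 2.56. Every fold rests on this scale. Array medians were 7.96 to 8.03. The signal over background is known only from a value's level.

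Clusters were named through the platform's annotation. Of 23332 clusters, 14996 named 1 gene, 1019 several and 7317 none. They gave 14860 genes, each represented by its cluster with the highest mean; each Hox member has 1 such cluster, and all 32 matched RefSeq (GRCm38.p6) by Entrez identifier and symbol. Probe sequences were not used, so signal shared between paralogues or overlapping transcripts cannot be separated.

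Differences between arrays were computed from the values as they stand (Python 3.11.15, pandas 2.3.3), and the counting was tested on simulated data. An expressed gene has its higher value in a comparison at or above 8.50. Alternative scalings used limma 3.58.1 in R 4.3.3. All Hox members are given. From each other list the genes with the widest difference in each direction of each comparison were open to naming, plus Meis1, Meis2, Pknox1, Ezh2, Kmt2a, Evx1, Evx2, Pitx1, Tbx4, Tbx5 and Myod1; Ezh1, Cd68, Sox9, Dpt and Dcn are named by this rule or to account for a count, and some items are not reported here. The members and lists were chosen with earlier results of these data known.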

Additional observations from a re-analysis of the deposited data

Results flagged for a closer look

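Hoxd13 differed in opposite directions under the same contrast. Its differentiation difference was 0.31 in control and -0.27 in siMUNC cells. Its knockdown difference was 0.31 in proliferating and -0.26 in differentiating cells. Both pairs come from the same 4 levels of 6.47 to 6.78, all below 8.50, and with 1 array per group the difference was not tested.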

How the results depend on the processing

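No paired analysis was possible because each group has 1 array. With each choice altered in turn, 9 Hox members stayed at or above 8.50 on all 4 arrays under every scaling tried, 19 or 20 stayed below it on all 4, and 0 were past 2-fold in each of the 5 comparisons under every setting. The 1.5-fold threshold, chosen after seeing the data, gave 1 member for differentiation in control cells and 2 for the knockdown in proliferating cells, and 0 in the other 3. Hoxa6 and Hoxc13, among these, counted as expressed through 1 array of the pair only. Median centring shifted the median of all genes from 0.04 to 0.10 for the knockdown in proliferating cells and from -0.03 to -0.12 for the difference of effects, and left 14 rather than 18 members above 0 for siMUNC differentiation, with a median of -0.02. Signs were followed under 6 altered settings: median centring, quantile and cyclic loess normalization, an offset of 50, a floor at the 25th percentile and the mean of a gene's clusters. The last cannot alter a Hox value, since each member has 1 cluster. The sign turned for 6, 6, 4, 3 and 1 of 32 members for differentiation in control cells, differentiation in siMUNC cells, the knockdown in proliferating cells, the knockdown in differentiating cells and the difference of effects. It turned for 0 of those with a difference of at least 0.3 in size. Hoxa9 ran from -0.84 to -0.78 and Hoxc13 from 0.60 to 0.74 for the knockdown in proliferating cells, Hoxa6 from -0.62 to -0.53 in control differentiation, and dim Hoxb8 from 0.23 to 0.50 in siMUNC differentiation. For the knockdown in proliferating cells the count of all genes past 2-fold, 30, became 19 with an offset of 50 and 87 without the expression filter. Under centring or quantile normalization 33.3% of the calls were higher, beside 23.3% with the values as deposited. Past 1.5-fold the counts of all genes were 2022, 940, 259, 958 and 1007 in the same order. Low levels, 19 of 32 members below 8.50 on all arrays, limit what can be read from the HoxB and HoxD genes.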

Other observations

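Hoxa3 and Hoxd4 were each measured only by a transcript cluster assigned to several genes. The cluster of Hoxa3 and Hoxaas3 had levels of 7.47, 7.47, 7.56 and 7.44, and that of Hoxd4 and Hoxd3 had levels of 6.49, 6.65, 6.71 and 6.88, in the order proliferating control, proliferating siMUNC, differentiating control and differentiating siMUNC. All 8 values are below 8.50, and the share of each gene in them is not known.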
